A study of Mus musculus with 6 samples.

Results

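The genes described here encode the subunits of the transcription factor NF-kappaB and proteins that regulate it. They are Nfkb1, Nfkb2, Rel, Rela and Relb (subunits), Nfkbia, Nfkbie, Nfkbiz and Bcl3 (IkappaB proteins) and Tnfaip3 (a ubiquitin-editing enzyme). They were chosen by symbol, and each was read from the probe set with the highest mean level among those annotated to that symbol alone. Of the 10 genes 9 were measured, among 18193 genes in all, and Nfkb1 was not analysed here. Levels are log2 array values, so a difference of 1 is a doubling, and every difference is Cdh1-deficient minus Cdh1-intact.

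Leukaemia cells of 6 C57BL/6 mice were profiled, 3 labelled Cdh1 intact and 3 Cdh1 deficient, with 1 array per mouse. All donors were Cdh1f/f, homozygous for a gene-trap allele that carries a floxed cDNA, with or without the Mx1-Cre transgene, and all were injected with pIpC at 7 to 8 weeks of age. The Mx1 promoter responds to interferon and is not restricted to B cells. Marrow mononuclear cells were taken 4 weeks after the last pIpC dose and 2 days after 5-fluorouracil at 150 mg/kg, and N-myc was carried by the retroviral vector pMXs-IG. In both groups the cells on the arrays were GFP-positive marrow cells of moribund mice, described as N-myc-induced B-cell leukaemia. Which Cre status belongs to which label, and what hosts the leukaemias grew in, were not given in the sources used here.

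NF-kappaB dimers are built from Rel-domain proteins and are kept in the cytoplasm by classical IkappaB proteins. Signals from antigen, cytokine and pattern receptors activate the IkappaB kinase, which marks IkappaB for destruction, and the freed dimers enter the nucleus and bind kappaB sites in DNA. Several of their targets encode their own inhibitors, above all Nfkbia and Tnfaip3, so transcripts of the inhibitors are often read as a trace of recent signalling. In B cells the pathway supports survival and maturation.

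Promoters are shown first, because kappaB sites are the DNA letters through which NF-kappaB acts on its own inhibitors. RefSeq promoters (GRCm38.p6, 250 bases before to 50 after the gene start) were found for 7 of the 10 genes. The kappaB consensus was present on at least 1 strand in 6 of these 7 genes, and in 5.14% of the 27025 genes with a promoter in the table. A looser pattern that fixes only the outer letters (GGG, then any 5 bases, then CC), and so includes every consensus match, was present in 7 of 7 and in 53.5% of all. The stretches below are shown because they hold the matches of the 2 feedback inhibitors with the best known kappaB control, Nfkbia and Tnfaip3, and of the subunit Nfkb2. Each runs 5′ to 3′ over the 150 bases before the gene start, with consensus matches of either strand in capitals.
Nfkbia, chr12:55492648-55492797, minus strand: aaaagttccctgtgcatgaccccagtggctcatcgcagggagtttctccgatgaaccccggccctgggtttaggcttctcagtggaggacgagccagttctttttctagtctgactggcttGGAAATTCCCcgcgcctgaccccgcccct
Tnfaip3, chr10:19015411-19015560, minus strand: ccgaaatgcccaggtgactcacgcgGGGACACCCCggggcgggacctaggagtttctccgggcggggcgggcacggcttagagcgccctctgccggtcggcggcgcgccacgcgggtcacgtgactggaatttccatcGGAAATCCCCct
Nfkb2, chr19:46304587-46304736, plus strand: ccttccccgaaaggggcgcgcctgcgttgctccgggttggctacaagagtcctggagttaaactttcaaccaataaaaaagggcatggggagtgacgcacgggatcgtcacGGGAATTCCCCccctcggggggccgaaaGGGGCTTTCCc

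Shorter windows show the matches of 3 further genes with 9 bases on either side, again 5′ to 3′. The Bcl3 match lay just after the gene start, and those of Nfkbie and Rel before it.
Bcl3, chr7:19822735-19822762, minus strand: cggcggcagGGGAAGTCCCgctgcccgg
Nfkbie, chr17:45555585-45555612, plus strand: cagcaaacaGGGGGATTCCggaggggcg
Rel, chr11:23771042-23771070, minus strand: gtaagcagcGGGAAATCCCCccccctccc
Rela was the gene of the 7 with no consensus match in its window. A second Tnfaip3 promoter in the table held none either, and both further Nfkb2 promoters did. A match is a description of the letters, and binding was not measured in these samples.

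The arrays were not alike in cell type transcripts, and the part of these transcripts in the differences below was not tested. On Cdh1-intact array 2 the mean log2 level of 11 B-lineage markers (of 12 fixed) was 5.46, against 8.67 to 9.39 on the other arrays, with Cd79b, Ms4a1 and Blnk below 5. That of 13 T and NK cell markers (of 14) was 8.02 there, 6.01 and 5.18 on arrays 3 and 1 of that group, and 4.97 to 4.98 in all Cdh1-deficient mice. Of these 13, 8 were highest on Cdh1-intact array 2, while Gzmb, Klrd1 and Ncr1 lay near the floor on all arrays. Markers of neutrophils (11 of 12) ranged from 5.82 to 9.10 in the Cdh1-intact and from 8.40 to 10.26 in the Cdh1-deficient group, and those of monocytes and macrophages (7 of 8) from 4.92 to 7.18 and from 5.78 to 6.83. Erythroid markers (4 of 6) ranged from 4.67 to 6.13 and from 4.75 to 5.04, with Hba-a1 near the floor. Fzr1, the mouse gene for the Cdh1 of this study, differed by −0.61 (SE 0.28, limma adjusted p = 0.849) with overlapping groups. All samples were described as B-cell leukaemia, yet 9 of the 11 B-lineage markers were lowest on Cdh1-intact array 2. Why this array differed, and whether any sample held several cell types, was not tested. From such values, fewer cells of a type and less RNA per cell cannot be told apart.

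None of the 9 genes passed the test between the groups. With limma 0 of 9 had an adjusted p under 0.05, as had 0 of all 18193 genes (0%). At an unadjusted p under 0.05 in this fit there were 0 of the 9 and 1000 of all genes (5.5%), of which 271 were lower (1.49%) and 729 higher (4.01%). The 95% interval of the difference held 0 for all 9. The narrowest interval, that of Nfkbia, reached 0.43 to either side of the estimate, and the others reached further. For each gene, differences smaller than this reach could not be told from 0 with 3 arrays a group, even before adjustment.

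By sign, 7 of the 9 genes were lower in Cdh1-deficient cells, beside 49.1% of all genes, and the median difference was −0.18 against 0.0034 over all genes. Without Cdh1-intact array 1, 4 of 9 were lower with a median of 0.02. Without Cdh1-deficient array 3, which held the lowest value of 5 of the 9 genes (14.7% of all genes), 5 of 9 were lower with a median of −0.06. Without Cdh1-intact array 2 or Cdh1-deficient array 1, 8 of 9 were lower, with medians of −0.24 and −0.26. Leaving out Cdh1-intact array 3 or Cdh1-deficient array 2 gave 7 of 9. The 4 genes with the lowest p, Tnfaip3, Nfkbia, Bcl3 and Nfkbiz, were all lower and all inhibitors or IkappaB proteins, with unadjusted p between 0.0734 and 0.107. They were lower in each of the alternatives that could give them a value. The highest of the 6 values lay on a Cdh1-intact array for 8 of the 9 genes, where 57.2% of all genes had theirs.

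**Figure D1:**
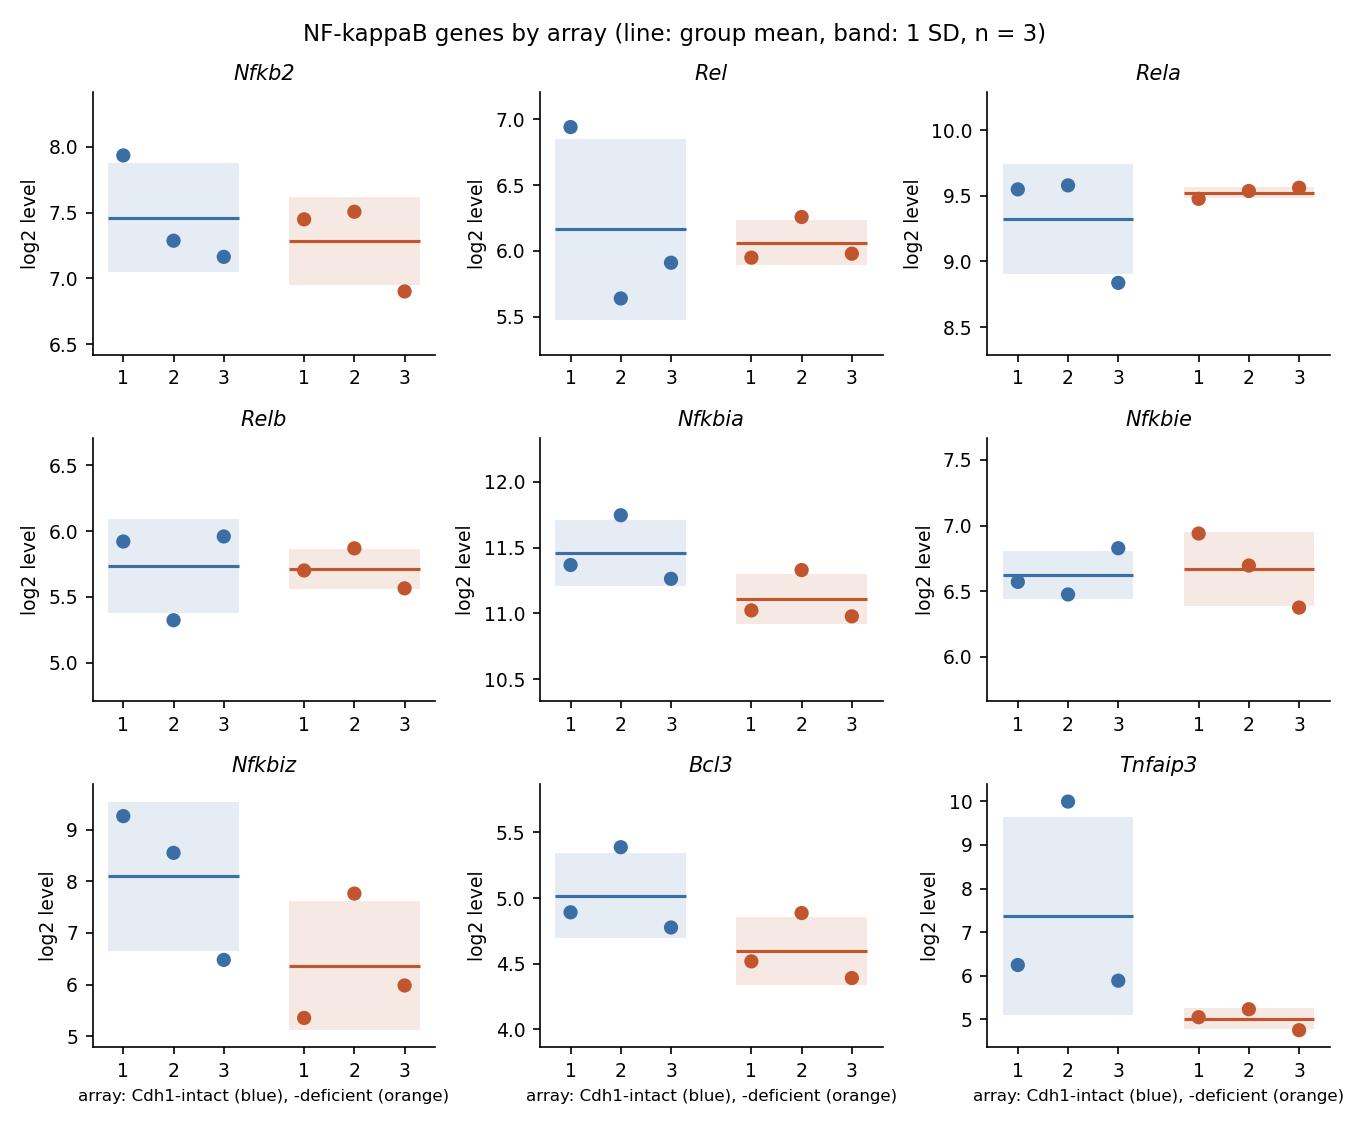
Log2 level of each NF-kappaB gene (vertical axis, own scale per gene) on the 3 Cdh1-intact (blue) and 3 Cdh1-deficient (orange) arrays, with group mean (line) and 1 SD (band). The groups overlap for every gene but Tnfaip3, whose Cdh1-intact array 2 lies at 9.996.

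Of the subunits, Rela encodes the main activating partner of the classical dimer. On the log2 scale it read 9.55, 9.58 and 8.84 in Cdh1-intact mice and 9.48, 9.54 and 9.56 in Cdh1-deficient mice, in the order of arrays 1, 2 and 3 as in all such series of values here. Cdh1-intact array 3 was low, and the other 5 arrays lay within a narrow band. The difference was 0.20 (SE 0.22, 95% interval −0.33 to 0.74, adjusted p = 0.872), and it turned to −0.04 without Cdh1-intact array 3.

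Rel encodes c-Rel, a subunit with a transactivation domain that is prominent in lymphocytes. It read 6.94, 5.64 and 5.91 in Cdh1-intact mice and 5.95, 6.26 and 5.98 in Cdh1-deficient mice. Cdh1-intact array 1 was the highest of the 6 and array 2 of the same group the lowest, so the Cdh1-deficient values fell inside the Cdh1-intact range. The difference was −0.10 (SE 0.35, adjusted p = 0.961), and 0.29 (SE 0.16, adjusted p = 0.787) without Cdh1-intact array 1.

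Relb and Nfkb2 encode the partners of the non-canonical dimer, which forms once the Nfkb2 precursor is processed. Relb read 5.92, 5.32 and 5.96 in Cdh1-intact mice and 5.70, 5.87 and 5.57 in Cdh1-deficient mice, a difference of −0.02 (SE 0.20, adjusted p = 0.987). Nfkb2 read 7.93, 7.29 and 7.16 against 7.45, 7.51 and 6.90, a difference of −0.18 (SE 0.27, adjusted p = 0.910). Both overlapped between groups, and both changed sign with single arrays left out (−0.23 to 0.09 for Relb and −0.33 to 0.06 for Nfkb2). The second Nfkb2 probe set differed by −0.04. Over the 4 subunits the median was −0.06 and the differences ran from −0.18 to 0.20.

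Nfkbia encodes IkappaB-alpha, the classical inhibitor that is destroyed and then made again within a signalling cycle. On the log2 scale it read 11.37, 11.75 and 11.26 in Cdh1-intact mice and 11.02, 11.33 and 10.98 in Cdh1-deficient mice. Only Cdh1-deficient array 2 reached into the Cdh1-intact range, by passing Cdh1-intact array 3. The difference was −0.35 (SE 0.17, 95% interval −0.77 to 0.08, adjusted p = 0.849). Without Cdh1-intact array 2, which had the highest level, it was −0.21 (SE 0.15, adjusted p = 0.857).

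The transcript was covered by 5 probe sets, all lower in Cdh1-deficient cells, with differences from −0.61 to −0.03. The groups did not overlap for 2 of them. One of these read 9.79, 10.21 and 9.66 in Cdh1-intact mice and 9.31, 9.37 and 9.17 in Cdh1-deficient mice. It differed by −0.61 (SE 0.17, limma unadjusted p = 0.0112, adjusted p = 0.854). Over the 9 genes, 16 of 18 probe sets were lower, among them 5 of Nfkbia and 3 of Nfkbiz. With 1 probe set per gene, 49.1% of all genes were lower. Of the 18 sets, 4 had groups that did not overlap, all of them Nfkbia and Tnfaip3 sets. In that direction 5.85% of all 34945 probe sets did not overlap. For the second Tnfaip3 set the nearest arrays almost tied, at 4.587 (Cdh1-intact array 3) and 4.585 (Cdh1-deficient array 3). Probe sets of a gene read the same RNA and are not replicates.

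Nfkbie encodes IkappaB-epsilon, a slower classical inhibitor. It read 6.57, 6.48 and 6.83 in Cdh1-intact mice and 6.94, 6.70 and 6.38 in Cdh1-deficient mice. The groups were interleaved, with the highest and the lowest value both Cdh1-deficient. The difference was 0.05 (SE 0.18, 95% interval −0.40 to 0.49, adjusted p = 0.969), and −0.14 on its other probe set.

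**Figure D2:**
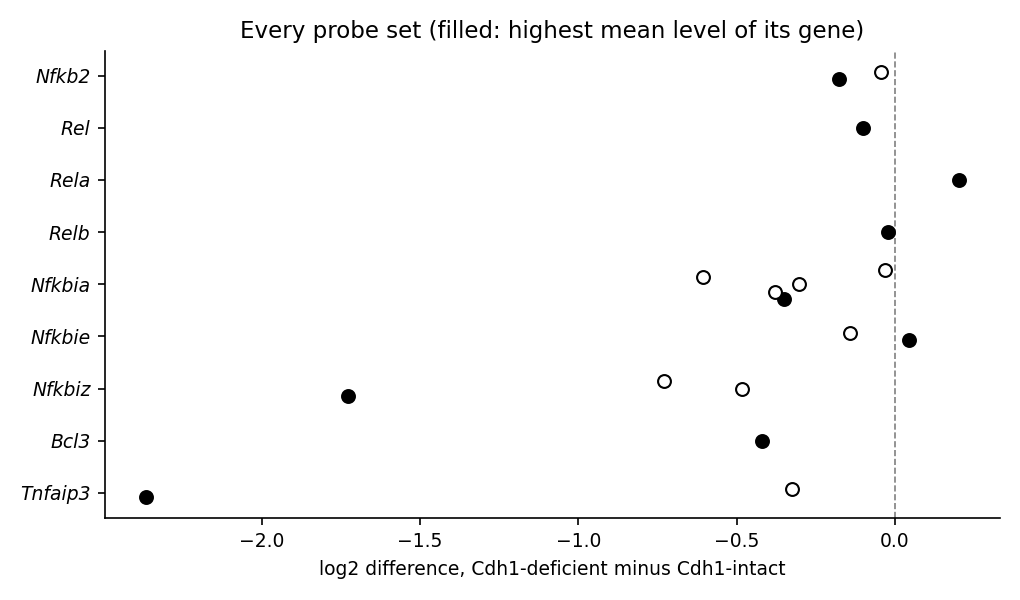
Log2 difference between the groups (horizontal axis) for each of the 18 probe sets of the 9 genes, with the probe set used for the gene filled. The 5 Nfkbia sets all lie below 0, and the 3 Nfkbiz and 2 Tnfaip3 sets lie below 0 at unequal distances.

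Nfkbiz encodes IkappaB-zeta, an inducible nuclear protein that switches on a subset of secondary response genes. On the log2 scale it read 9.26, 8.55 and 6.48 in Cdh1-intact mice and 5.36, 7.76 and 5.98 in Cdh1-deficient mice. It was high on Cdh1-intact arrays 1 and 2 and on Cdh1-deficient array 2, and the within-group SD of 1.44 and 1.25 (n = 3 each) was close to the size of the difference. The difference of −1.73 (SE 0.91, 95% interval −3.96 to 0.50) had an adjusted p of 0.849 in limma.

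The other Nfkbiz probe sets did not rank the arrays alike. One read 8.52, 6.64 and 5.19 in Cdh1-intact mice and 4.83, 9.07 and 5.00 in Cdh1-deficient mice, so that Cdh1-deficient array 2 was the highest of all. Averaged over its probe sets, Nfkbiz differed by −0.98 (SE 0.87). Leaving out Cdh1-intact array 1 gave −1.15 (SE 0.95), and leaving out Cdh1-deficient array 2 gave −2.43 (SE 0.87).

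Bcl3 encodes another nuclear IkappaB protein, which binds NF-kappaB homodimers that lack their own activation domain. It read 4.89, 5.39 and 4.78 in Cdh1-intact mice and 4.52, 4.89 and 4.39 in Cdh1-deficient mice. Its mean over the 6 arrays, 4.81, lay below the median of all genes (5.97), at percentile 34.7. Cdh1-deficient array 2 lay above Cdh1-intact array 3, so the groups overlapped. The difference was −0.42 (SE 0.21, 95% interval −0.94 to 0.11, adjusted p = 0.849), and −0.24 (SE 0.18) without Cdh1-intact array 2.

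Tnfaip3 trims ubiquitin chains from adaptors of the cytokine and antigen receptors and so ends signalling. On the log2 scale it read 6.24, 9.996 and 5.89 in Cdh1-intact mice and 5.05, 5.23 and 4.75 in Cdh1-deficient mice. Every Cdh1-intact array lay above every Cdh1-deficient array. It was the 1 gene of the 9 whose groups did not overlap, where 5.09% of all genes were lower without overlap and 6.65% higher. The difference was −2.37 (SE 1.09, 95% interval −5.04 to 0.31, adjusted p = 0.849), and by p Tnfaip3 stood at place 1519 of 18193.

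Most of that size came from Cdh1-intact array 2, the array with high T and NK cell markers. The Cdh1-intact SD was 2.28 and the Cdh1-deficient SD 0.24 (n = 3 each). With the array left out, Tnfaip3 differed by −1.06 (SE 0.20, adjusted p = 0.801), smaller but still without overlap. On Cdh1-intact array 1 the T and NK markers averaged 5.18. There Cd3d (6.10 against 5.09 to 5.41 in Cdh1-deficient mice), Cd3e, Cd2, Cd4, Gzma, Nkg7 and Klrd1 lay above every Cdh1-deficient array. So did Tnfaip3 (6.24 against 4.75 to 5.23). The margin was narrow for Nkg7 (5.15 against at most 5.12), Gzma (4.40 against at most 4.36) and Cd4 (5.58 against at most 5.52). Klrd1 lay near the floor. Cd3g (3.25 against 3.31 to 3.52) and Il2rb (4.20 against 4.29 to 4.36) lay below every Cdh1-deficient array. The remaining T and NK markers lay within the Cdh1-deficient range. The second Tnfaip3 probe set read 4.65, 5.40 and 4.59 against 4.56, 4.51 and 4.58, and differed by −0.33.

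**Figure D3:**
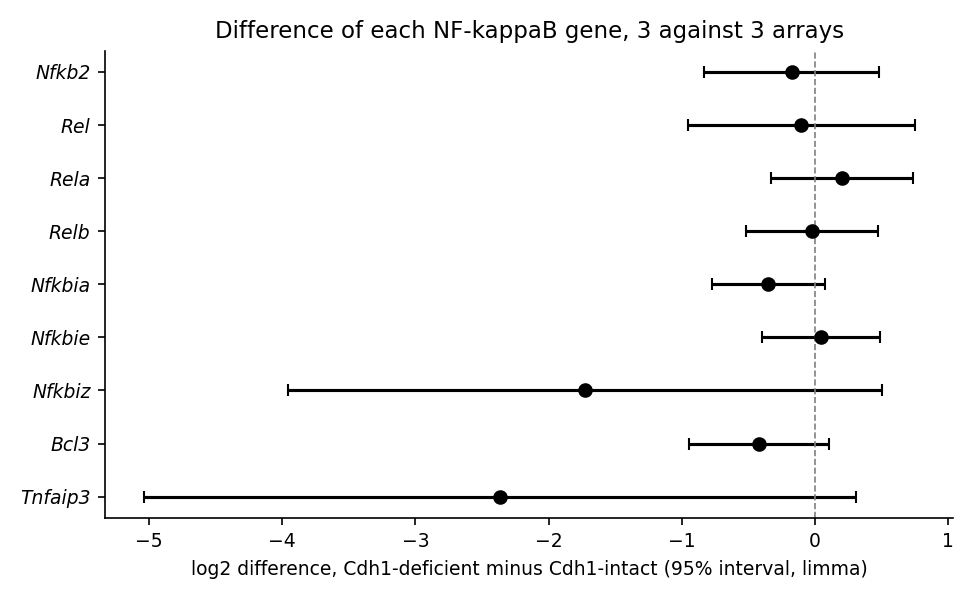
Log2 difference of each gene (point) with its 95% interval from limma (bar), 3 against 3 arrays. All 9 intervals cross 0, and those of Nfkbiz and Tnfaip3 are the widest.

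The genes with profiles most like those of Nfkbia and Tnfaip3 over the 6 arrays were found by the root mean square difference of gene-centred log2 values. For Nfkbia these were Dzip1, Robo3, Mtmr1, Kcna3 and Erlec1, at 0.04 to 0.06. For Tnfaip3 they were Ddc, Crtam, Plaat3, Nkg7 and Tnik, at 0.23 to 0.35. All 10, like Nfkbia and Tnfaip3 themselves, were highest on Cdh1-intact array 2, a likeness that the choice by profile itself favours. Nkg7, a granule membrane gene of cytotoxic cells, is also among the T and NK markers and read 9.54 there against 4.63 to 5.50 elsewhere.

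Other genes of the pathway were read by role, and 0 of the 73 measured passed limma's adjusted threshold. The 8 ligands had a median difference of −0.13 with 6 lower, and 0 were under an unadjusted p of 0.05. Tnf, the prototype inducer, read 6.08, 5.55 and 5.53 in Cdh1-intact mice and 5.31, 6.08 and 5.27 in Cdh1-deficient mice. Tnfsf13b, the B-cell survival factor BAFF, differed by 0.48 (SE 0.38), Lta by 0.060 (SE 0.15) and Il1a, near the floor, by −0.22 (SE 0.12). The 10 receptors had a median of 0.13 with 7 higher. Of these, Ltbr, a receptor of the non-canonical branch, differed by 0.72 (SE 0.38) and Tlr2 by 0.80 (SE 0.61), while Tnfrsf1b, a TNF receptor, differed by −0.74 (SE 0.62) and Tnfrsf11a, the receptor RANK, by −0.18 (SE 0.18). Tnfrsf1b followed Cdh1-intact array 2, with 8.78 there and 6.37 to 6.69 elsewhere.

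The kinases and adaptors (16 of 21 measured) had a median of −0.07, with 10 lower and 6 higher. Map3k7 encodes TAK1, the kinase upstream of the IkappaB kinase. It read 7.61, 7.13 and 7.93 in Cdh1-intact mice and 8.08, 8.11 and 8.39 in Cdh1-deficient mice, without overlap, and differed by 0.64 (SE 0.23, unadjusted p = 0.0301). Birc2, a ubiquitin ligase of the TNF receptor complex, was also without overlap at 0.42 (SE 0.17). Ikbkg, the regulatory subunit of the IkappaB kinase, differed by −0.25 (SE 0.12) and Rbck1, of the linear ubiquitin ligase, by −0.20 (SE 0.12).

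Beside the inhibitors and IkappaB proteins already described, 11 genes listed as other inhibitors had a median of 0.01 with 5 lower. Nfkbid, a nuclear IkappaB protein like Nfkbiz and Bcl3, read 9.32, 9.44 and 8.18 in Cdh1-intact mice and 7.76, 8.18 and 7.92 in Cdh1-deficient mice. It was lower without overlap, though the nearest arrays of the groups both read 8.18, and differed by −1.03 (SE 0.35, unadjusted p = 0.0275, limma adjusted p = 0.849). Otud7b and Tnip2, a deubiquitinase and a partner of Tnfaip3, differed by 0.46 (SE 0.21) and 0.40 (SE 0.24), and Tnip1 by −0.20 (SE 0.12).

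The 28 target genes had a median of −0.02 with 15 lower and 13 higher, which is close to the 49.1% lower among all genes. Irf1, an interferon regulatory factor, had the lowest p of the pathway, 0.00626 unadjusted and 0.849 adjusted. It read 8.95, 9.31 and 8.51 in Cdh1-intact mice and 8.11, 8.09 and 7.91 in Cdh1-deficient mice, a difference of −0.89 (SE 0.21). Nos2 differed by −0.24 (SE 0.10), and the cytokine subunit Ebi3 and the chemokine Ccl22 by 0.72 (SE 0.31) and 0.27 (SE 0.13). Targets that mark survival or B-cell state, such as Bcl2l1 (0.0011) and Birc3 (0.36), named here as examples, did not pass, and the count of lower targets went from 15 to 9 without Cdh1-intact array 1.

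**Figure D4:**
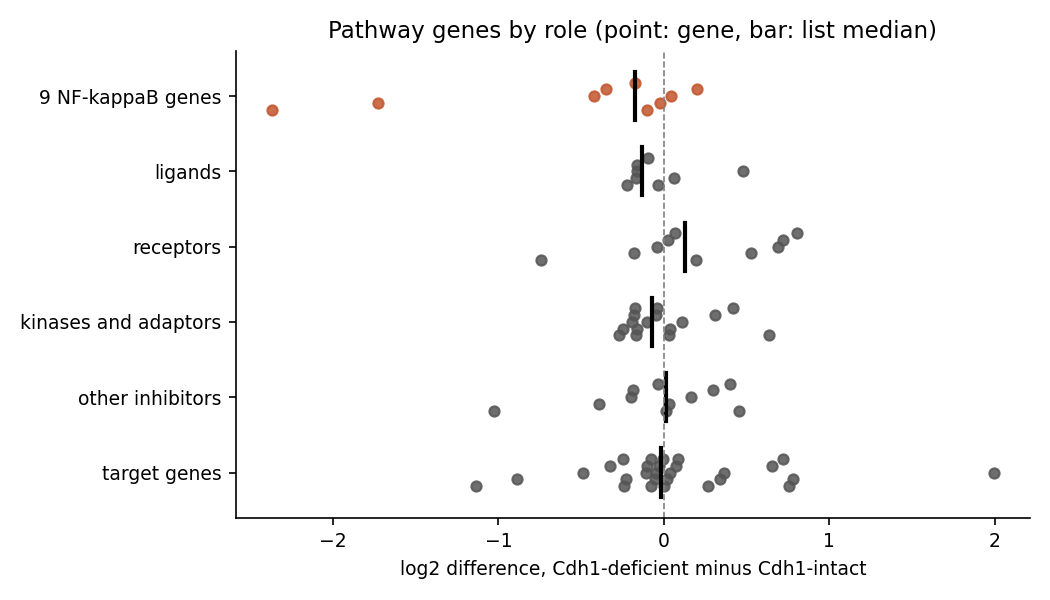
Log2 difference between the groups for the 9 NF-kappaB genes (orange) and the other pathway genes by role (grey), 1 point per gene, with the median of each list as a bar. List medians lie between −0.18 and 0.13, and the lowest points are Tnfaip3 and Nfkbiz.

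Some targets were also described after their values were seen. Of the 3 arrays on which Nfkbiz was high, Cdh1-intact array 1 and Cdh1-deficient array 2 held the 2 highest values of 7 of the 28 targets (Cxcl2, Ccl2, Ccl3, Bcl2l1, Traf1, Ier3 and Ccnd1) and of 6.52% of all genes. The other 21 targets, among them Cxcl1, Ccl4 and Gadd45b, did not have this order, and of the 9 NF-kappaB genes Nfkb2 and Rel had it. For Ccl2, Bcl2l1, Traf1 and Ccnd1 the order held by a narrow margin (Traf1 4.70 against 4.67 and Bcl2l1 7.32 against 7.25 on the next array). The pair of arrays was also picked after the values were seen, so the count is a description only. Cxcl2, a neutrophil chemokine, read 6.13 on Cdh1-intact array 1 and 7.75 on Cdh1-deficient array 2, against 3.25 to 4.09 in the other 4 mice. Ier3, an early response target, read 6.71 and 6.76 on the same arrays and 3.75 to 4.31 elsewhere. Ccl3, a macrophage chemokine, read 6.27 and 6.63 there, 5.31 on Cdh1-intact array 2, and 3.68 to 4.18 in the remaining 3 mice. Those are also the arrays with the highest mean levels of the monocyte and macrophage markers (7.18 and 6.83 against 4.92 to 5.99), and 5 of the 7 markers had their 2 highest values there. Mrc1 and C1qa did not, with C1qa at 4.70 on Cdh1-deficient array 2 and 5.33 on Cdh1-deficient array 1. The mean of the neutrophil markers was highest on the same 2 arrays (9.10 and 10.26, against at most 9.02 elsewhere). S100a9, Ltf, Camp, Ngp, Mmp8 and Cxcr2 did not have this order singly, and the other neutrophil markers did. The erythroid mean was also highest there (6.13 and 5.04, against at most 4.89), with Alas2 at 9.31 on Cdh1-intact array 1. Klf1 had the order too, and Epor and Hba-a1 did not. By list mean, then, the order was not particular to the monocyte and macrophage list.

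Cdh1-intact array 2 departed from this pattern. Nfkbiz was high on it (8.55) while Cxcl2 (3.25) and the monocyte and macrophage markers (4.92) were at their lowest. Since the 2 high arrays belong to different groups, none of these genes separated the groups.

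**Figure D5:**
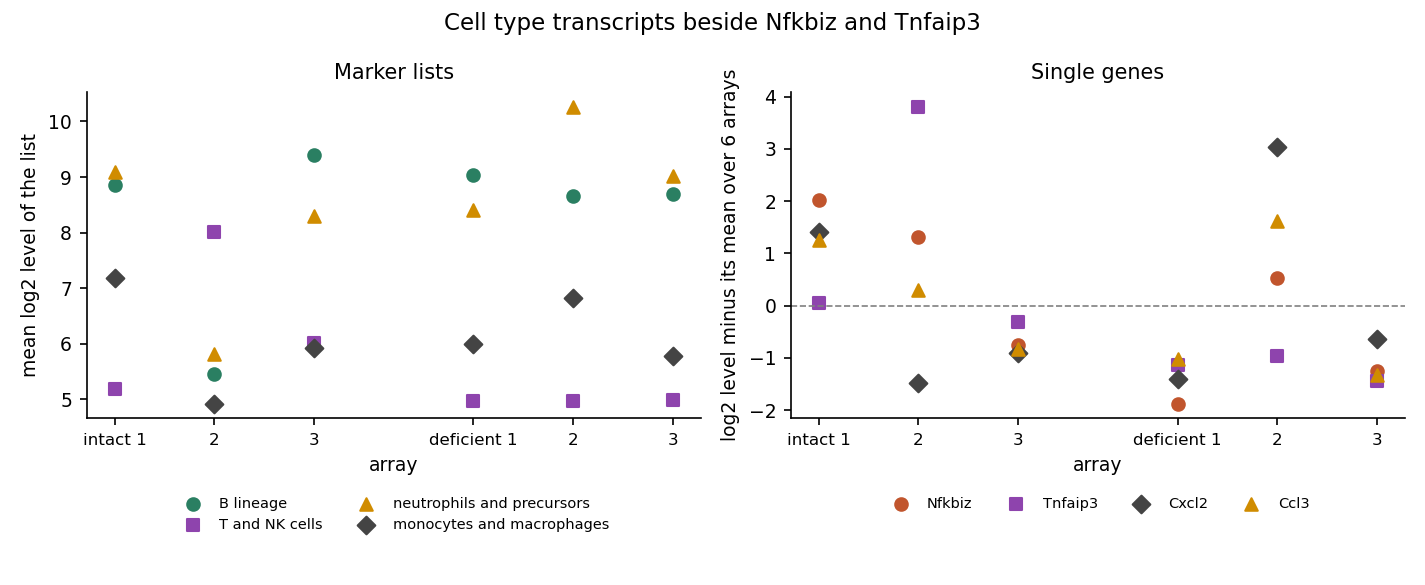
Left, mean log2 level of 4 marker lists on each array. Right, log2 level of Nfkbiz, Tnfaip3, Cxcl2 and Ccl3 minus each gene's mean over the 6 arrays, with Cxcl2 and Ccl3 high on Cdh1-intact array 1 and Cdh1-deficient array 2, and Tnfaip3 high on Cdh1-intact array 2.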

How the data were processed

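The authors deposited log2 values of 45101 probe sets on each array and used RMA (version not given), per the submitters' processing notes. RMA equalizes array distributions, so a change of total RNA per cell cannot be seen. Gene names came from GEO's annotation of the array platform. Of 35890 listed sets, 34945 carried 1 symbol. Groups and numbers came from the sample titles, and each array was taken as 1 mouse.

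The groups were tested against each other in R 4.3.3 with limma 3.58.1 (lmFit, eBayes, two-sided) on all 18193 genes, with no filter and Benjamini-Hochberg adjustment at 0.05. The code was tested on simulated data. A permutation of 3 against 3 arrays has a smallest two-sided p of 0.1 and was not used. "Near the floor" means below the lower quartile of mean gene levels (4.26) on all arrays.

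The genes and lists were chosen with earlier results of these data known, so lists are described by counts and medians, with no test. Named genes were the 10 themselves, the 2 of lowest p per direction in each pathway list, the 5 nearest profiles of Nfkbia and Tnfaip3, and Fzr1. Exceptions are given as examples. Alternatives were 2 normalizations, 2 filters on level, 2 probe set choices, trend with robust estimation, array weights, the replicate block and each array left out. Protein sequences were not used here.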

Additional observations from a re-analysis of the deposited data

How the results depend on the processing

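No gene passed the adjusted threshold of 0.05 under any alternative, and none passed 0.1 with all 6 arrays. The lowest adjusted p over all genes was 0.0536 without Cdh1-deficient array 2, and leaving out array 1 or 3 of the Cdh1-intact group gave 0.0596 or 0.0762, each below 0.1. For the 9 genes the lowest was 0.471. Tnfaip3, Nfkbia, Nfkbiz and Bcl3 kept their direction in every alternative that gave a value (14 or 15 each). Nfkbie turned to −0.048 when its probe sets were averaged and to −0.037 with array weights. With 1 array left out, Nfkb2 ran from −0.33 to 0.060, Rel from −0.36 to 0.29, Rela from −0.039 to 0.33, Relb from −0.23 to 0.090 and Nfkbie from −0.089 to 0.19. Over the same fits 4 to 8 of the 9 genes were lower, 9 to 19 of the target genes were lower, the median of the other inhibitors ran from −0.12 to 0.10 and that of the kinases and adaptors from −0.13 to 0.052. The latter was −0.12 with quantile normalization and −0.046 with genes below the median level left out. The cause was not tested.

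No pairing was stated, so the numbers were not taken as pairs. Deviations of same-numbered arrays from their group means correlated across genes at r = −0.14, 0.01 and 0.04. Those of differently numbered arrays ran from −0.21 to 0.22. With 3 arrays a group such values cannot decide whether the arrays were paired. With the replicate number as a block no gene passed either. Nfkbia then stood at −0.35 (SE 0.10, limma unadjusted p = 0.0291, adjusted p = 0.837). Bcl3 stood at −0.42 (SE 0.10, limma unadjusted p = 0.0167, adjusted p = 0.837). The number of arrays limits the precision.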
